A study of Mus musculus with 8 samples.

Results

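The sodium pump genes examined here were the 7 FXYD genes (Fxyd1 to Fxyd7) and the genes of 2 beta subunits of the Na,K-ATPase (Atp1b1 and Atp1b3), 9 of the 36799 genes and other targets on the array. They were found through the RefSeq accessions that name the array's probes, and 10 probes represented them. The family was chosen by its EED cKO against control differences on these same arrays, so the values of its members in that comparison are a description, without a test.

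RNA came from the back skin epidermis of newborn (P0) C57BL/6 mice, 4 EED cKO and 4 control, labelled as biological replicates. In EED cKO mice, Cre recombinase driven by the Krt14 promoter deletes floxed Eed in epidermal progenitors from embryonic life on, so that cells of other origin in the preparation keep the gene. EED is a core subunit of PRC2, the complex that methylates histone H3 at lysine 27. The labels call the other 4 samples control and do not give their alleles, and no group was treated. Every array also received Universal Mouse Reference RNA, a commercial mix bought as a common standard, with the sample in Cy3 on replicates 1 and 3 and in Cy5 on replicates 2 and 4 of each genotype. A value below is the log2 ratio of sample over reference RNA, and a difference is the EED cKO mean minus the control mean, with its standard error (SE) from limma with the dye as a covariate (n = 4 arrays per genotype). Ratios were not compared between genes, since each is relative to that gene's own level in the reference.

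The Na,K-ATPase carries sodium out of the cell and potassium into it and so sets the gradients on which sodium-coupled transport depends. Its alpha subunit binds the ions and splits ATP, its beta subunit is a glycoprotein needed to fold the alpha subunit and bring it to the plasma membrane, and FXYD proteins are small membrane proteins that bind the pump and tune its ion affinity or turnover in a tissue-dependent way. In epithelia the pump works with apical sodium channels to move sodium across the cell layer.

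Eed itself had a mean ratio of -1.80 ± 0.17 (SD) in EED cKO and -0.35 ± 0.13 in control, a difference of -1.46 (SE 0.09). The sample channel cleared background clearly at 53.3% to 65.5% of spots in EED cKO and at 51.5% to 65.4% in control, and precision is limited by the number of arrays. All 8 keratinocyte markers (Krt5, Krt14, Krt1, Krt10, Trp63, Dsg3, Ivl and Lor) were measured, and their mean ratio lay between 2.83 and 3.32 in EED cKO and between 2.64 and 3.33 in control. Control replicates 2 and 3 stood apart in the mean ratio of 4 Y-linked genes, at 1.19 and 1.02 against -1.51 to -1.31 on the other 6 arrays, so differences are also given without both where they matter. Each genotype filled a slide row of its own, so slide row and genotype cannot be told apart.

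Of the 9 members, 8 passed the filter on dim probes, which asks for a sample signal well above background on 3 or more arrays in either genotype. Fxyd7 did not. An adjusted p below 0.05 (limma, Benjamini-Hochberg) together with a difference of 2-fold or more was found for 2 of the 8, Fxyd4 and Atp1b1, both higher in EED cKO, where the share over all 23238 features tested was 1.2% in either direction and 1.1% higher. With no fold limit 5 of the 8 passed, 4 higher (Fxyd1, Fxyd4, Fxyd6 and Atp1b1) and 1 lower (Atp1b3), beside 21.6% of all features (11.8% higher and 9.88% lower). Nothing is read from these counts, since the family was chosen by the same comparison. The median difference over the 8 was 0.48, beside 0.02 over all features tested, and all 6 FXYD genes measured had a positive difference, as had 53.9% of all features, while the beta subunits went opposite ways.

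**Figure D1:**
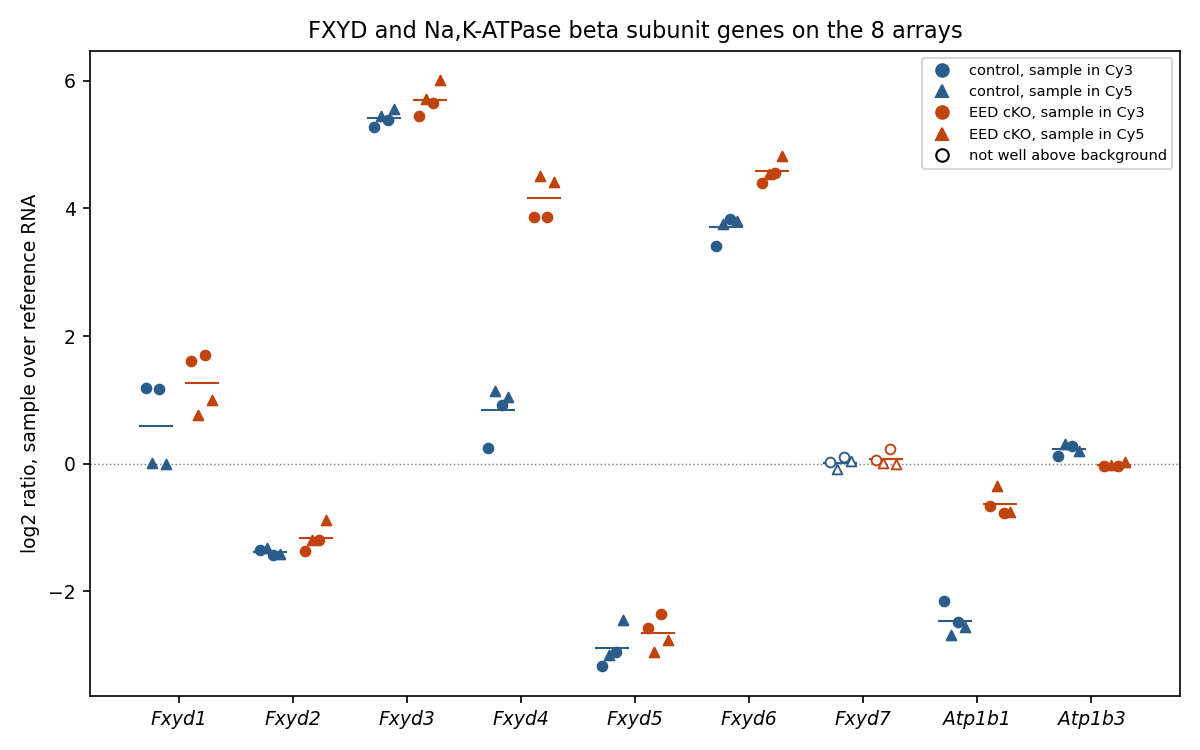
Log2 ratio of sample over reference RNA (vertical axis) for the 9 genes on each of the 8 arrays, control in blue and EED cKO in orange; circles are arrays with the sample in Cy3, triangles with the sample in Cy5, open symbols are not well above background, and lines are group means. The groups of 4 are far apart for Fxyd4 and Atp1b1, apart by less for Fxyd6 and Atp1b3, and overlap for the others, while Fxyd1 splits by dye.

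Promoters are shown for the members with the largest differences, Fxyd4, Atp1b1 and Fxyd6, because they differ in their content of CpG, which is in capitals. Each is the 250 bases before the annotated start, written 5′ to 3′ on the strand of the gene, from RefSeq on GRCm38.p6. The windows are chr6:117937336-117937585 on the minus strand (Fxyd4), chr1:164458356-164458605 on the minus strand (Atp1b1) and chr9:45369935-45370184 on the plus strand (Fxyd6).
Fxyd4: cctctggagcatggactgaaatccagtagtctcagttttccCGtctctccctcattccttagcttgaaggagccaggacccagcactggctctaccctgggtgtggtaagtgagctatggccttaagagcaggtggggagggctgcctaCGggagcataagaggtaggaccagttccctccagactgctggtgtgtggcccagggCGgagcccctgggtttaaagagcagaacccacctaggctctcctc
Atp1b1: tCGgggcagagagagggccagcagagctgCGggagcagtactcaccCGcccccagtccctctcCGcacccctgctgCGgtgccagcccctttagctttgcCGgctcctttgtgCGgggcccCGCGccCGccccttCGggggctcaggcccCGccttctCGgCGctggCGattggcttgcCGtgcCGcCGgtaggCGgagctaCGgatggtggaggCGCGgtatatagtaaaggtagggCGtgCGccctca
Fxyd6: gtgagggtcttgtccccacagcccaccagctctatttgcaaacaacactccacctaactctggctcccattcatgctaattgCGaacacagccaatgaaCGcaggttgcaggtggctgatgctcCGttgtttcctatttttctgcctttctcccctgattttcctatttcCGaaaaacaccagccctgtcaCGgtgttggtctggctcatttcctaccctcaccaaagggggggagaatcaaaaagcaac

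The Fxyd4 window holds 3 CpG and 58.0% G or C, and 37.8% of the 32851 promoters of the same length hold as many CpG or fewer. The Fxyd6 window holds 5 CpG (49.6% of promoters hold as many or fewer) and 50.4% G or C. The Atp1b1 window is CpG-rich, with 24 CpG (89.3% hold as many or fewer) and 70.4% G or C, while the median promoter holds 6 CpG and the quartiles are 2 and 16. Promoters were matched for 7 of the 9 members. Fxyd1 and Fxyd5 hold 3 CpG each and Fxyd3 holds 5, whereas the annotated starts of Atp1b3, the member that was lower in EED cKO, hold 24 and 35. The letters GGGCGG, searched on both strands, occur in the windows of Fxyd4 and Atp1b1 and in 1 of the Atp1b3 windows, and in 32.7% of all promoters. The letters TATAAA, on either strand, occur in none of the member windows and in 12.4% of all promoters. The CpG counts of Fxyd4 and Fxyd6 thus lay between the quartiles and that of Atp1b1 above the upper quartile. The windows were shown because they differ in this, so nothing is read from it.

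Among the FXYD regulators, Fxyd4 had the largest difference. It encodes the corticosteroid hormone-induced factor, known from the collecting duct of the kidney and the distal colon, where it raises the pump's affinity for sodium. Its ratios were 3.87, 4.50, 3.86 and 4.42 on EED cKO replicates 1 to 4 and 0.24, 1.14, 0.92 and 1.04 on control replicates 1 to 4. The lowest EED cKO array thus lay far above the highest control array, and the spread within each genotype was small beside the gap. The difference was 3.33 (SE 0.13), or 10.0-fold, and it was 3.29 between the Cy3 arrays and 3.37 between the Cy5 arrays. Without both control arrays that carried Y-linked signal it was 3.52.

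The size of the Fxyd4 difference depended on the processing. The reference channel was well above background on 6 of the 8 arrays, whereas the sample channel was on all 8. The log2 reference signal was 5.66 to 6.28 and the log2 sample signal of the control arrays 6.24 to 6.85. For the Fxyd7 probe, which did not pass the filter, the log2 reference signal was 5.94 to 6.06, so these Fxyd4 signals were dim. In the log2 ratios that the authors deposited, the EED cKO arrays were at 5.53, 6.02, 5.49 and 6.87 and the control arrays at 1.80, 5.35, 3.26 and 4.97. All EED cKO arrays were still above all control arrays, but the control arrays spread over a wide range and the difference was 2.13, or 4.39-fold. With median centring it was 2.71 (6.53-fold), in the sample channel alone 3.54, and with no background correction as the sole change 3.47. The cause of the lower values was not tested.

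Fxyd6 encodes phosphohippolin, an FXYD protein known mainly from brain and inner ear. Its ratios were 4.40, 4.55, 4.56 and 4.83 in EED cKO and 3.41, 3.75, 3.84 and 3.80 in control. The genotypes did not overlap, with control replicate 1 the lowest array. The difference was 0.88 (SE 0.11), or 1.85-fold, just under the 2-fold limit, and it was 0.86 between Cy3 arrays and 0.91 between Cy5 arrays.

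For Fxyd6 the reference channel moved along with the sample channel, although the reference RNA was the same mix on every array. The log2 reference signal was 7.65, 7.86, 7.79 and 7.83 on the EED cKO arrays and 6.71, 7.13, 7.40 and 6.97 on the control arrays, also without overlap. That is a difference of 0.73, and 0.189% of the features tested had a reference difference at least as large. The sample channel alone differed by 1.62, or 3.07-fold, so Fxyd6 was past the 2-fold limit there and 3 members passed instead of 2. In the deposited log2 ratios the difference was 0.62. For Fxyd4 the reference channel differed by 0.22 and for Fxyd3 by 0.20, which 1.71% and 2.08% of features equalled or exceeded, while the other 5 members differed by between -0.05 and 0.06. The source of these reference differences was not tested.

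**Figure D2:**
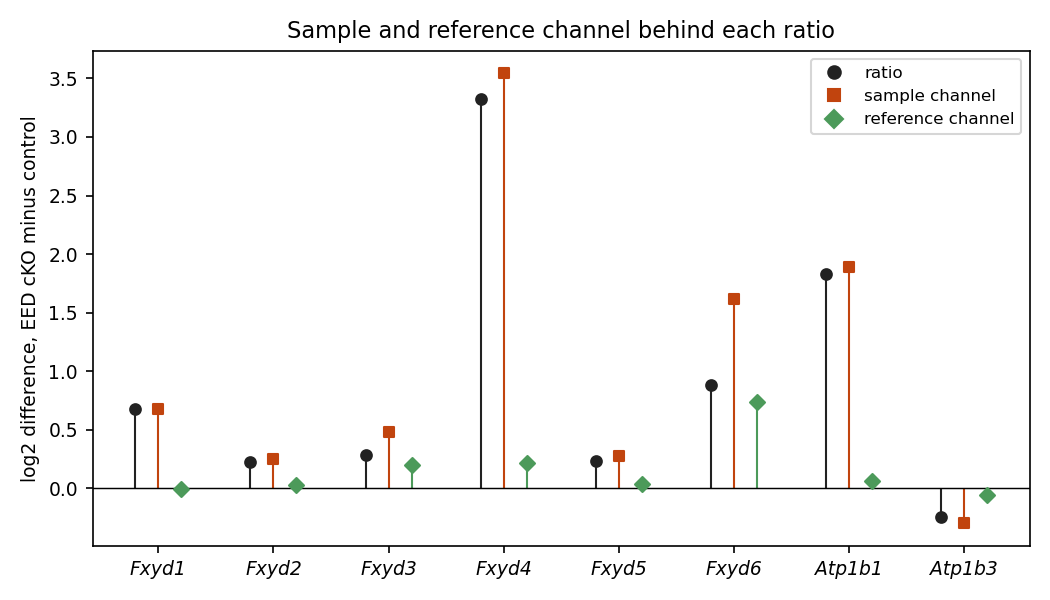
Log2 difference of EED cKO minus control (vertical axis) for each of the 8 members measured, in the ratio (black circles), the sample channel (orange squares) and the reference channel (green diamonds). The reference difference is near 0 for Fxyd1, Fxyd2, Fxyd5, Atp1b1 and Atp1b3 and reaches 0.73 for Fxyd6.

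Fxyd1 encodes phospholemman, the FXYD protein of heart and skeletal muscle that releases its inhibition of the pump when phosphorylated. Its ratios were 1.60, 0.77, 1.70 and 0.99 in EED cKO and 1.18, 0.01, 1.17 and -0.01 in control. Across all 8 arrays the genotypes overlapped, because the Cy5 arrays were on average 0.97 lower than the Cy3 arrays. Within each dye the EED cKO arrays were above the control arrays, by 0.47 for Cy3 and by 0.88 for Cy5. The fit with the dye as a covariate gave a difference of 0.68 (SE 0.10), or 1.60-fold.

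Fxyd3 (Mat-8), first described in mammary tumours and present in many epithelia, had ratios between 5.44 and 6.01 in EED cKO and between 5.28 and 5.55 in control. The groups overlapped, and the difference was 0.29 (SE 0.09). In the sample channel alone it was 0.48, and with median centring 0.16. Fxyd2, the gamma subunit of the kidney pump, ranged from -1.37 to -0.89 in EED cKO and from -1.43 to -1.33 in control, again with overlap, and differed by 0.22 (SE 0.09). A second, dimmer Fxyd2 probe gave 0.31, and on it the groups did not overlap. With median centring the first probe's difference was 0.07.

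Fxyd5 (dysadherin), known for lowering E-cadherin-mediated adhesion, had ratios of -2.58, -2.95, -2.35 and -2.77 in EED cKO and -3.18, -3.00, -2.95 and -2.46 in control. The arrays of the 2 genotypes were interleaved. The difference of 0.24 (SE 0.17) came from the Cy3 arrays (0.60), and the Cy5 arrays differed by -0.13. Fxyd7, known from brain, was above background in the sample channel on 0 of 8 arrays and in the reference channel on 1. It was not tested, and it is not well above background in either genotype.

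Of the beta subunits, Atp1b1 had the larger difference. It encodes the most widespread beta subunit of the pump, which also takes part in cell-cell adhesion in epithelia. Its ratios were -0.66, -0.36, -0.78 and -0.75 in EED cKO and -2.15, -2.68, -2.49 and -2.56 in control. Every EED cKO array lay more than 1 log2 unit above every control array. The difference was 1.83 (SE 0.13), or 3.57-fold, with 1.60 between Cy3 arrays and 2.07 between Cy5 arrays, and it was 1.72 without both control arrays with Y-linked signal. Its reference signal was steady, between 10.35 and 10.56 on the log2 scale. In the deposited log2 ratios the difference was 2.17.

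Atp1b3, the gene of another beta subunit found in many tissues, went the other way. Its ratios were -0.03, -0.02, -0.04 and 0.03 in EED cKO and 0.12, 0.31, 0.28 and 0.20 in control. The groups did not overlap, but the difference was small, at -0.24 (SE 0.07), or 1.18-fold lower. With median centring it was -0.41, and without both control arrays with Y-linked signal -0.17. In all, the groups did not overlap for 4 members (Fxyd4, Fxyd6, Atp1b1 and Atp1b3), 3 of them higher in EED cKO, beside 17.1% of all features in either direction and 9.64% higher.

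Over the 23 other ways of processing that were tried, each of the 8 members kept the sign of its difference. Several of these ways cannot move the difference of a gene without a second probe. They include the other filters and probe rules, and the fits without the dye term or with the replicate number as a block. The deposited log2 table repeats the Feature Extraction log ratio, so the 23 are not separate checks. Fxyd4 ranged from 2.13 to 3.54, Atp1b1 from 1.71 to 2.17, Fxyd6 from 0.62 to 1.62, Fxyd1 from 0.59 to 0.74 and Atp1b3 from -0.41 to -0.17. Fxyd2, Fxyd3 and Fxyd5 ranged from 0.07 to 0.28, from 0.16 to 0.48 and from 0.07 to 0.42. Fxyd4 and Atp1b1 stayed the only members past the 2-fold limit, except that Fxyd6 joined them in the sample channel alone.

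**Figure D3:**
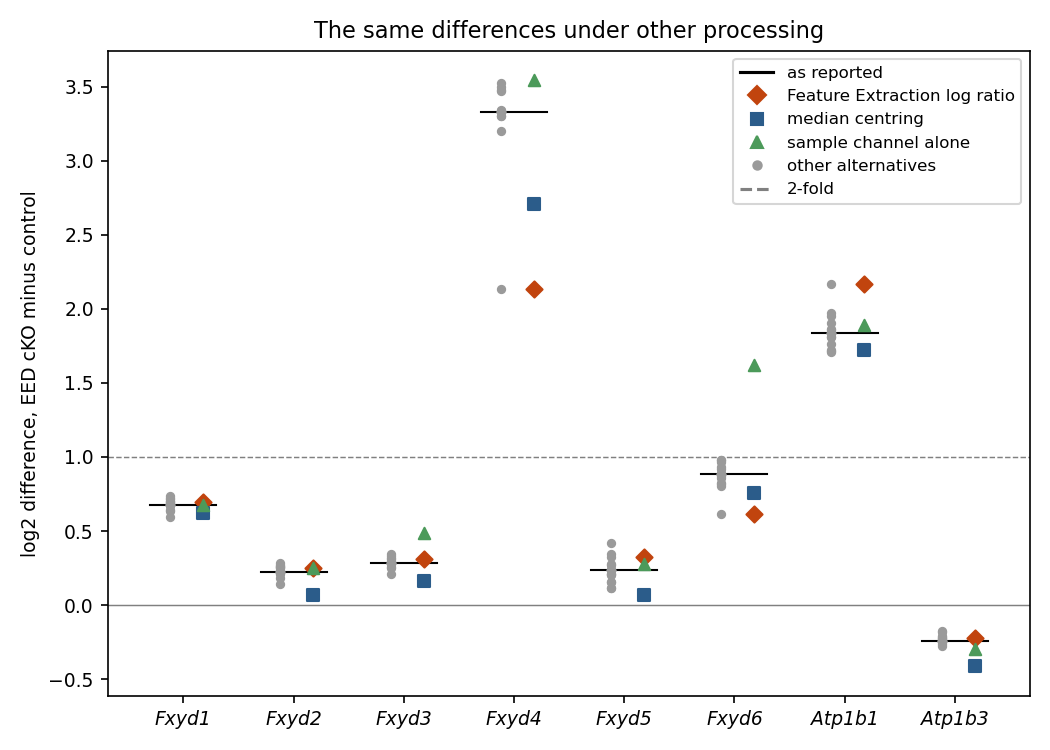
Log2 difference of EED cKO minus control (vertical axis) for the 8 members measured, as reported (black line) and under the other processing tried; the deposited log2 table gives the same values as the Feature Extraction log ratio. Fxyd4 is lowest (2.13) with the Feature Extraction log ratio, and Fxyd6 passes the 2-fold line in the sample channel alone.

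The genes with the most similar profiles were named by Pearson's r over the 8 arrays, which mostly reflects the gap between genotypes and is given as a description. For Fxyd4 they were Gm5640 (r = 0.995), Cgas (r = 0.995), the sensor of cytosolic DNA, and Rab3b (r = 0.995), a small GTPase of regulated secretion. Their differences were 1.00, 1.68 and 1.71. For Atp1b1 they were Sfmbt2 (r = 0.994), a Polycomb group protein, Bid (r = 0.993), a pro-apoptotic BCL-2 family member, and Hoxd9 (r = 0.991), a homeobox transcription factor, with differences of 1.70, 0.22 and 2.03.

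The rest of the pump, the transporters around it and adherens junction genes were followed through 9 lists of 95 genes in all, of which 72 were measured. The adherens junction list, which holds no transporters, had 0 genes called higher and 3 lower of 10 measured and is part of the counts that follow. At any fold change 22 of them (30.6%, beside 21.6% of all features) had an adjusted p below 0.05 in limma, 11 higher and 11 lower in EED cKO. Of those higher, Atp12a, Aqp5, Slc4a4 and Slc9a3 passed the filter on dim probes only through EED cKO arrays, which favours a higher value. With no filter 9 were higher and 11 lower. The split was 4 higher and 8 lower with median centring and 6 higher and 10 lower with the deposited values. Scnn1b alone was also past 2-fold, but not with the deposited values. There its difference was 0.25, while called differences past 2-fold were found for Atp12a (1.89), Scnn1g (1.71), Aqp5 (1.55), Kcne3 (1.11) and Nr3c1 (-1.01) of the genes named below. Across all features 255 were higher and 23 lower at the 2-fold limit, and 156 and 56 with median centring.

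Atp1b2, the beta subunit of glia and neurons, had a difference of 0.05 (SE 0.08, limma adjusted p = 0.667). Of the relatives of the pump, Atp12a, the catalytic subunit of the non-gastric H,K-ATPase, rose by 0.73 (SE 0.08, limma adjusted p = 0.000671), from a probe above background on 4 EED cKO and 2 control arrays. Nkain1, which encodes a protein that binds the pump's beta subunit, rose by 0.44 (limma adjusted p = 0.0104), but its second probe differed by 0.17. It was the 1 gene called of 3 measured in its list, and Atp12a the 1 called of 2. Among 8 calcium ATPases and their small membrane regulators, Atp2a2, the calcium pump of the endoplasmic reticulum, was the 1 gene called, with a difference of -0.37 (limma adjusted p = 0.00735), and -0.15 on a dimmer probe.

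The epithelial sodium channel list had 6 genes called of 12 measured, 4 higher and 2 lower. Scnn1b, the beta subunit of the channel through which sodium enters the cell, had ratios of 1.92, 2.99, 2.27 and 2.64 in EED cKO and 0.78, 1.47, 1.33 and 1.05 in control. All EED cKO arrays were above all control arrays, and Scnn1b rose by 1.30 (SE 0.17, limma adjusted p = 0.00147), or 2.46-fold. With the deposited values the call was lost (limma adjusted p = 0.188). Scnn1g, the gamma subunit, rose by 0.53 (limma adjusted p = 0.00593), a call that was lost without the dye term (limma adjusted p = 0.129). The alpha subunit Scnn1a had a difference of -0.20 (SE 0.23, limma adjusted p = 0.586). Stk39, a kinase that acts on sodium-coupled chloride transporters, rose by 0.67 (limma adjusted p = 0.00353). Nr3c1, the glucocorticoid receptor, fell by 0.95 (SE 0.08, limma adjusted p = 0.000153), and its second probe gave -0.41.

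Of the remaining transport lists, sodium-coupled exchangers and cotransporters had 3 genes higher and 3 lower of 16 measured, potassium channels 1 higher and 1 lower of 11, and aquaporins 1 higher of 8. The genes named from them were Slc6a6, the taurine transporter, at -0.77 (limma adjusted p = 0.00953), Slc4a4, a sodium bicarbonate cotransporter, at 0.34 (0.0391), Kcne3, a channel accessory subunit, at 0.67 (0.0319), Kcnj15, an inward rectifier, at -0.30 (0.0219), and Aqp5, a water channel of glands, at 0.61 (0.00167). Slc9a3, a sodium-proton exchanger, was well above background on 3 EED cKO arrays and on 0 control arrays. For the group means this gives a bound of at least 1.22-fold higher in EED cKO (limma adjusted p = 0.0456 for the difference). Single arrays of the 2 genotypes overlapped, with EED cKO replicate 1 at 0.01 and control replicate 3 at 0.10. Adherens junction genes were examined because Fxyd5 and Atp1b1 are known to act on cell adhesion. Of 10 measured 3 were called, all lower (30%, beside 9.88% of all features). They were Cdh3 (P-cadherin) at -0.90 (limma adjusted p = 0.00526), Ctnnd1 (p120 catenin) at -0.68 (0.00208) and Ctnna1 (alpha-catenin) at -0.61 (0.0143). The others were not called, among them Cdh1 (E-cadherin) at -0.06 (limma adjusted p = 0.664). The call of Cdh3 was lost without the dye term (limma adjusted p = 0.0831) and with the deposited values (0.0999), and that of Ctnna1 without the dye term (0.083), with median centring (0.0539), with the Y-linked level as a covariate (0.0715) and without both arrays with Y-linked signal (0.0987). Dimmer probes of Kcnj15 and Aqp5 gave -0.03 and 0.20. Other probes of Slc4a4 gave 0.21 and 0.13, and another probe of Slc9a3, well above background on 0 arrays of either genotype, gave 0.02. The named probes of Aqp5 and Slc4a4 were well above background on 4 EED cKO and 2 control arrays. The calls of Kcne3, Kcnj15, Slc4a4 and Slc9a3 were lost when EED cKO replicate 4 or control replicate 2 was left out. For some of them this held without other arrays too (limma adjusted p up to 0.133). These calls were also lost with median centring and without the dye term.

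**Figure D4:**
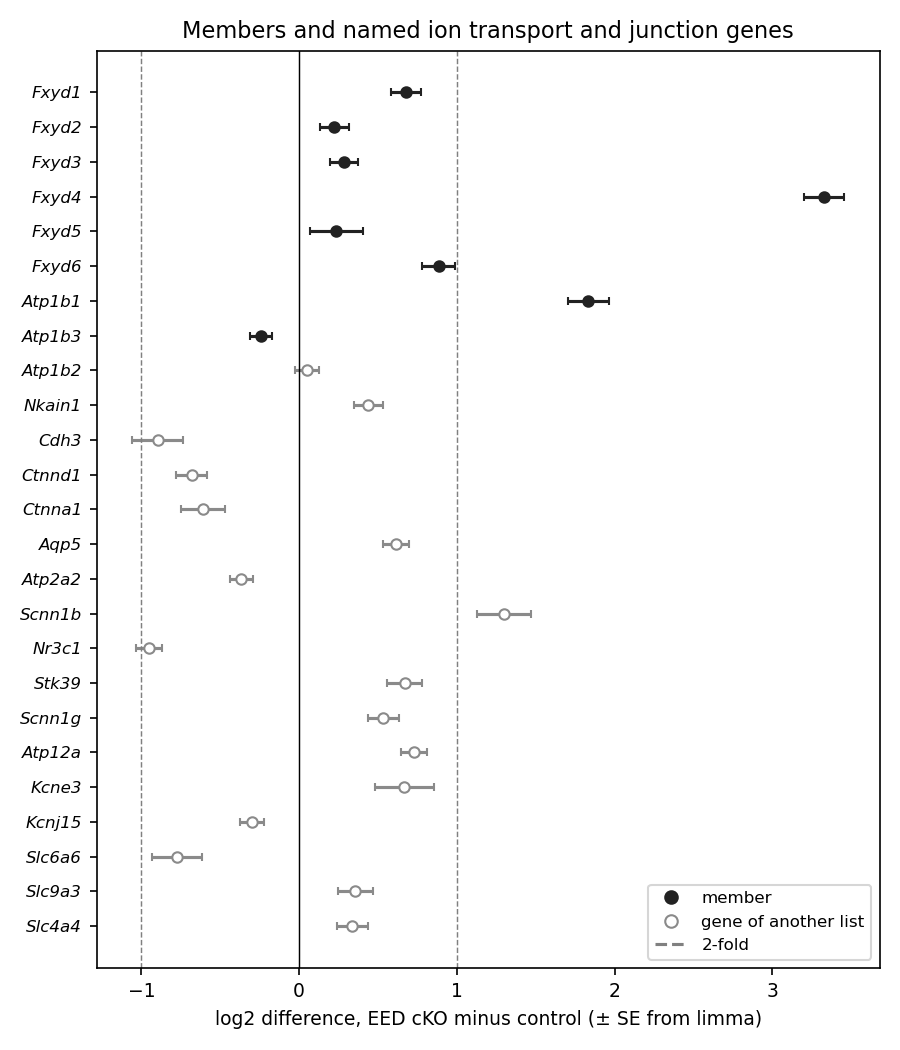
Log2 difference of EED cKO minus control with its SE from limma (horizontal axis) for the 8 members measured (filled) and for genes named from the other lists (open), with dashed lines at 2-fold. Fxyd4, Atp1b1 and Scnn1b lie past 2-fold.

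The 5 protein-coding genes on each side of every member or member cluster were examined next. Of 51 such neighbours 38 were measured and 11 (28.9%, beside 21.6% of all features) had an adjusted p below 0.05 at any fold, 5 higher (13.2%, beside 11.8%) and 6 lower (15.8%, beside 9.88%). The split was 1 and 3 with median centring and 3 and 7 with the deposited values. With limma 0 of the 38 passed at 2-fold, also with an unadjusted p below 0.05, and 17 had such a p at any fold. The 21.6% of all features is for adjusted p, so nothing is read from the 17. Around Fxyd4, 1 of 7 neighbours was called and it was lower. Around Atp1b1, 2 of 7 were called and higher. They were Slc19a2 (a thiamine transporter) at 0.60 (limma adjusted p = 0.0313) and Blzf1 (a Golgi protein) at 0.54 (limma adjusted p = 0.0102). The call of Slc19a2 was lost without any one of 5 arrays, EED cKO replicates 2, 3 and 4 and control replicates 2 and 4 (limma adjusted p up to 0.0888). It was also lost with median centring (limma adjusted p = 0.12) and without the dye term (0.0565). Beside Atp1b3, Tfdp2, a dimerization partner of E2F factors, fell by 0.81 (limma adjusted p = 0.000665), and by 0.43 on a dimmer probe. With the deposited values its difference was -1.03, past 2-fold. Beside the cluster of Fxyd5, Fxyd7, Fxyd1 and Fxyd3, Hpn, which encodes the protease hepsin, rose by 0.71 (limma adjusted p = 0.0018). The differences of Fxyd4 and Atp1b1 were larger than that of any measured neighbour. The family was chosen by this same comparison and the neighbours were not, so nothing is read from that.

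Because whole epidermis was measured, a change in the number of cells of a type and a change in RNA per cell cannot be told apart on these arrays. Markers of several other cell types moved with the genotype. All 7 Merkel cell markers measured were higher in EED cKO (mean ratio -0.44 to -0.28, against -1.38 to -1.09 in control), among them Krt20 by 1.12 and Atoh1 by 0.88, while Piezo2 was not measured. Of these, Atoh1, Isl1 and Sox2 passed the filter only through EED cKO arrays, which favours a higher value. Of the endothelial markers 2 of 3 were higher (0.66 to 1.00 against 0.18 to 0.42), with Cdh5, Tie1 and Emcn not measured, and of the adipocyte markers 3 of 4 (0.09 to 0.47 against -0.41 to -0.04), with Adipoq and Cfd not measured. Of 5 immune markers 2 were higher (-1.12 to -0.60 against -1.29 to -0.84), and 1 of 7 dermal fibroblast markers (-3.12 to -2.98 against -3.25 to -2.96). Of 6 Schwann cell and neuron markers Tubb3 was higher by 1.15 (limma adjusted p = 0.00862) and Sox10 lower, at -0.50 (limma adjusted p = 0.0489), with S100b not measured and mean ratios of -0.19 to 0.36 against -0.23 to 0.16. The erythroid genes Hba-a1 and Hbb-bt differed by 1.21 and 1.22 and were not called (limma adjusted p = 0.116 and 0.145), with overlapping groups. The part of these cells in the differences of Fxyd4, Atp1b1 and the other members was not tested.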

How the data were processed

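The members and gene lists were chosen with earlier results of these data known. The 9 members are named above, as are the other genes, by a fixed rule: the other Na,K-ATPase subunits, from each other list up to 4 genes with an adjusted p below 0.05, up to 4 neighbours, the 3 genes most like each 2-fold member, and defining markers. Genes named outside it were picked with their values in view, and some genes that the rule takes are not reported here.

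The authors deposited Agilent Feature Extraction 12.0.1.1 output, with spot and background intensity per channel, and a table of log2 ratios, which equal the log2 processed sample over reference signals to within 7.33e-06 for 55249 probes with 1 spot and are not centred. Their log10 ratio, per the file headers, is Cy5 over Cy3. The file's flags for spots well above background, other columns and array positions were read as deposited.

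Here median intensities were corrected with normexp (offset 50), normalized by loess within arrays and turned to sample over reference. Normexp draws ratios of dim spots toward 0. Spots of a probe were averaged, and a gene was represented by its brightest probe that passed the filter on dim probes (sample signal well above background on 3 or more arrays in either genotype). RefSeq accessions of GRCm38.p6 matched 28026 of 29796 probes. Of 36799 targets 23238 were tested, with 19 missing values left out. The test was limma 3.58.1 in R 4.3.3 (genotype plus dye, Benjamini-Hochberg). It was also run on simulated data with independent noise drawn from this same fit. That cannot show the error rate under effects of slide row or replicate number, so nothing is read from it. Alternatives were other background corrections, scalings, filters, probe rules and models, the methods' t-test, and each array left out. The array was annotated on an older build, so coordinates are given only for promoters.

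Same-numbered arrays of the 2 genotypes share a slide column and dye. Their deviations from the group means correlated at 0.49, 0.68, 0.33 and 0.36. After removal of the dye the values were 0.13 for replicates 1 and 3 and 0.46 for replicates 2 and 4. With the dye removed, the arrays of 1 dye in a genotype have mirrored deviations, so equal values are not separate results. The number also marks slide column, so what it pairs is unclear, and the main fit does not use it.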

Additional observations from a re-analysis of the deposited data

Results flagged for a closer look

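In 66 groups of 4 arrays, 1 array was set apart from the other 3 of its group in 2 cases, and chance alone sets apart about 1 in 20 groups. Hpn, the neighbour of the Fxyd5 to Fxyd3 cluster, had a ratio of 1.33 on control replicate 1 and of 1.72 to 1.74 on the other control arrays. Slc6a6 had a ratio of -0.041 on EED cKO replicate 2 and of -0.56 to -0.48 on the other EED cKO arrays. No member of the family was among them.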

How the results depend on the processing

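The count of members past 2-fold was 2 with each single array left out (2 to 2) and 5 at any fold change. Over all features the count of 278 became 701 with the Feature Extraction log ratio, 701 with the deposited log2 table, 275 with the methods' t-test at its unadjusted limit, 175 with it after Benjamini-Hochberg adjustment and 5028 at any fold, and ranged from 255 to 317 with 1 array left out. The 22 called genes of the transport and adherens junction lists became 12 with median centring, 9 without the dye term, 14 with the Y-linked level as a covariate, 3 with the adjusted t-test, 1 at 2-fold and 13 without both arrays with Y-linked signal. With 1 array left out they ranged from 13 to 25, with 14 when EED cKO replicate 4 was left out and 13 for control replicate 2. The 11 called neighbours became 4, 3, 5, 1, 0 and 5 in the same order, 7 in the sample channel alone, and 3 to 11 with 1 array left out, being 4 when EED cKO replicate 4 was left out, 3 for control replicate 2 and 5 for control replicate 4. Alternatives at 2-fold for the lists and without both arrays with Y-linked signal were chosen after seeing the data. Atp1b2, which was not called, ranged from -0.00077 without EED cKO replicate 4, a change of sign, to 0.076 without control replicate 1. Calls were lost with median centring for Nkain1, Stk39 and Blzf1 (limma adjusted p of 0.0621, 0.0677 and 0.0912). Without the dye term they were lost for Scnn1g and Atp2a2 (0.129 and 0.126). Without both arrays with Y-linked signal they were lost for Slc6a6 and Atp2a2 (0.052 each). Kcne3, Kcnj15, Slc4a4 and Slc19a2 lost their calls in 11, 11, 12 and 8 of 23 settings, and Slc9a3 in 13 of 22. For each of them these included median centring and the fit without the dye term (limma adjusted p of 0.0565 to 0.179). The cause of these shifts was not tested.

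With the replicate number as a block, which treats same-numbered arrays as pairs, the counts were 279 over all features and 2 for the members. They were 31 for the lists (13 higher and 18 lower) and 14 for the neighbours. No count moved by over 1.5 times, and no call was lost among the genes named from the transport and adherens junction lists and the neighbours. The calls of single members and of cell type markers were not followed in this fit. Fxyd7 was above background in the sample channel of 0 of 8 arrays, so it has no difference to compare.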
